A study of Homo sapiens with 6 samples.

Results

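The transcripts of 40 DNA repair and Fanconi pathway genes were followed in HCT116 cells with and without knockdown of IGF2BP3, an RNA-binding protein that reads m6A marks on mRNA. The genes were taken by name from the deposited table of 62710 genes, and all 40 had a row and enough counts to be tested. By role they were 6 mismatch repair genes, 4 genes of DNA end resection, 8 of homologous recombination, 10 of the Fanconi pathway, 6 of the damage checkpoint, 2 RecQ helicases and 4 genes of break sensing and end joining. HCT116 is an established human colon cancer cell line that is deficient in mismatch repair. The control group, sh-NC, carried a scrambled short hairpin RNA (shRNA), and the knockdown group, sh-IGF2BP3, carried an shRNA against IGF2BP3, with 3 libraries in each group. According to the study's methods both shRNAs were delivered by lentivirus and stable lines were selected with puromycin, so that every library came from infected and selected cells. A single shRNA was used, and no added drug is given in the labels. The labels do not say whether the libraries of a group were separate cultures, so p-values measure only the spread between these libraries, which may be technical.

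DNA repair is divided among pathways that each recognise a kind of lesion. Mismatch repair corrects errors left by the replicative polymerases, homologous recombination copies a sister chromatid to mend a double-strand break, and the Fanconi pathway unhooks crosslinks between the strands at a stalled replication fork. The checkpoint kinases halt the cell cycle while repair takes place, and many of these genes are expressed most strongly in dividing cells. Cell lines deficient in mismatch repair, such as HCT116, accumulate small insertions and deletions in repeated sequence, and WRN is known as a gene on which such lines often depend.

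The designed shRNA sequences are shown because they define the groups. The sh-IGF2BP3 sequence of 19 bases was found in 2 genes among the GENCODE 29 transcripts, of which 1 was IGF2BP3 and 0 were repair genes of the list, and the sh-NC sequence was found in 0 genes.
sh-NC: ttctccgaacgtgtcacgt
sh-IGF2BP3: ggctcagggaagaatttat

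IGF2BP3 (ENSG00000136231, chr7:23310209-23470491, minus strand, GRCh38) was measured first as a check of the labels. Values by library are given in the order of replicates 1, 2 and 3. Its normalised read count, in counts scaled to a common library total (CPM), was 90.3, 84.1 and 70.3 CPM across the controls, against 60.2, 52.3 and 55.8 CPM across the knockdown libraries. Each sh-IGF2BP3 library lay below each sh-NC library, and the ratio of the group means was 0.687. The log2 fold change was −0.54 with a standard error (SE) of 0.181, which did not pass the test over all genes (adjusted p = 0.126, edgeR quasi-likelihood test with Benjamini-Hochberg, BH, adjustment). Once the trends with GC content and length that are described next had been removed, it was −0.22 (SE 0.185) and the groups overlapped. That value lay between −0.37 without sh-NC 3 and −0.03 without sh-NC 1 when each library was left out in turn. The two-sided exact permutation test over libraries gave p = 0.1, and a design of 3 libraries in each group cannot reach a lower value. For its HCT116 cells the study reports the knockdown by qPCR and by Western blot, which these libraries do not measure.

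The libraries held between 16146718 and 23576469 counts. Fold changes were taken from edgeR's two-sided quasi-likelihood test over 16753 genes, and a gene was called at a BH-adjusted p under 0.05 with a fold change over 1.5. In these libraries the fold change of a gene followed the GC content of its transcript. Most results are therefore also given after each library's trend with GC content and gene length had been removed. Of 8 colon epithelial markers, EPCAM, KRT8, KRT18, KRT19 and CDH1 were expressed, while VIL1, CDX1 and LGALS4 had between 1 and 9 counts over all libraries. At an unadjusted p under 0.05 by edgeR, KRT19 and KRT8 were higher with overlapping groups, with log2 fold changes of 0.80 and 0.51, and CDH1 was lower without overlap, at −0.47. With the trends removed, 0 of the 5 tested epithelial markers were higher and 1 was lower at that p. Their log2 fold changes then ran from −0.40 to 0.33. The part of these markers in the repair results was not tested. Of 11 markers of fibroblasts, leukocytes and endothelium, COL1A1 was measured at 27.9 to 58.4 CPM, PECAM1 and VWF stood between 0.338 and 2.65 CPM, and the other 8 had at most 19 counts in total. Since these were bulk libraries, fewer cells that express a gene and less RNA per cell cannot be told apart.

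No repair gene passed the threshold in either direction. With edgeR's quasi-likelihood test and BH adjustment, 0 of the 40 genes were called in either direction, beside 0.0% of all tested genes higher and 0.0% lower. At an unadjusted p under 0.05, XRCC1, XRCC3 and FANCG were higher, which is 3 genes beside 13.6% of all genes tested, and MLH3, ATM, BRCA2, WRN and FANCL were lower, which is 5 genes beside 8.54%. DESeq2 called XRCC1 and XRCC3 higher, 2 genes beside 4.29% of the 13087 genes for which it gave an adjusted p, and called 0 genes lower beside 1.05%. The groups were fully separated for 5 genes that were higher (XRCC1, XRCC3, FANCG, RAD54L and ATRIP), beside 13.2% of all genes, and for 4 that were lower (MLH3, MSH3, ATM and WRN), beside 11%.

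The fitted fold changes were negative for 25 genes and positive for 15, with a median log2 fold change of −0.12 over the 40 genes and −0.01 over all genes tested. With the GC and length trends removed the split turned to 11 negative and 29 positive, and the median to 0.10 beside 0.01 over all genes. Of the 40 genes, 16 went from lower to higher and 2, FANCE and ATRIP, from higher to lower, while 9 were lower and 13 higher in both. After the removal an unadjusted p under 0.05 was held by XRCC1, RAD50 and RAD51C on the higher side, 3 genes beside 6.86% of all genes, and by MLH3 on the lower side, 1 gene beside 3.59%, with 0 called by edgeR or by DESeq2. The groups were then fully separated for 4 higher genes (XRCC1, XRCC3, RAD50 and CHEK1), beside 1413 of all 16753 genes. On the lower side they were separated for 1 gene, MLH3, beside 1122 of all genes.

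**Figure D1:**
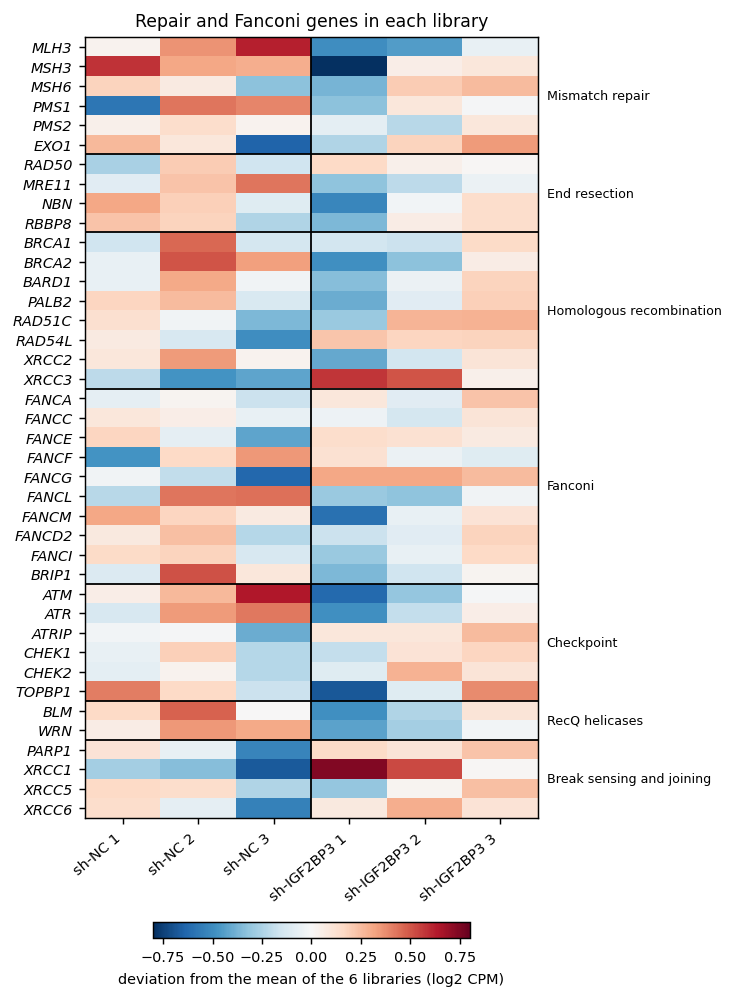
Deviation of each of the 40 genes from its mean over the 6 libraries, in log2 CPM, with 1 row per gene grouped by role and 1 column per library; red is higher and blue lower than the mean. The median of the 40 genes was lowest in sh-IGF2BP3 1 (−0.30) and highest in sh-NC 2 (0.18), and the other libraries of each group lay between them.

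The libraries of a group also differed among themselves. Taken over the 40 genes, the median distance of a library from the average library was 0.06, 0.18 and −0.14 log2 CPM for the controls, and −0.30, −0.05 and 0.11 log2 CPM for the knockdown libraries. The ranges of the groups overlapped, and sh-IGF2BP3 3 stood above sh-NC 1 and sh-NC 3. With the trends removed these medians were 0.08, 0.00 and −0.31 in the sh-NC libraries and −0.05, 0.11 and 0.14 in the knockdown libraries, and the lowest library was then sh-NC 3.

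The number of genes called by edgeR changed most when the library sh-NC 1 was left out. Without it, XRCC1, XRCC3 and FANCG were called higher by edgeR, 3 genes beside 10% of the 17379 genes tested, and MLH3, ATM, BRCA2 and FANCL were called lower, 4 genes beside 5.67%. Their adjusted p-values then lay between 0.0127 for XRCC1 and 0.0397 for BRCA2 (edgeR quasi-likelihood test with BH adjustment, 5 libraries). Leaving out sh-IGF2BP3 3 brought 1 call, XRCC1, beside 1.23% of 17399 genes called higher and 0.0805% called lower, and leaving out any of the other 4 libraries brought 0 calls.

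Among the mismatch repair genes, 4 of 6 were lower and 2 higher, with a median log2 fold change of −0.18 that turned to 0.08 with the trends removed. MLH3 (chr14:75013769-75051532), a partner in the MutL endonuclease that also acts in meiotic crossing over, shared the lowest rounded value with MSH3. MLH3 had 20.4, 25.7 and 30.7 CPM in the control libraries against 14.1, 14.6 and 19.1 CPM in the knockdown libraries, so that the groups did not overlap. Its log2 fold change was −0.68 (SE 0.229, unadjusted p = 0.00894, adjusted p = 0.126 by edgeR with BH adjustment). MLH3 was also lower without overlap once the trends were removed, with a log2 fold change of −0.37 (SE 0.168, unadjusted p = 0.0472, adjusted p = 0.475 by edgeR with BH adjustment).

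MSH3, which recognises small insertion and deletion loops, is described because its libraries were seen not to overlap. Its level was 7.79, 6.44 and 6.34 CPM in the controls and 2.00, 5.36 and 5.51 CPM in the knockdown libraries. The value of sh-IGF2BP3 1 rested on 35 counts and stood apart from the other libraries of its group. Its log2 fold change of −0.68 had an SE of 0.351 and an adjusted p of 0.269 (edgeR with BH adjustment), and it lay between −0.92 and −0.33 when each library was left out in turn. With the trends removed the MSH3 value was −0.48 (SE 0.331, unadjusted p = 0.178 by edgeR), and the groups overlapped.

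EXO1, the exonuclease that removes the strand with the error, had the highest fold change of the mismatch repair genes, at 0.16 (SE 0.236), and 0.33 (SE 0.232) with the trends removed. It had 55.7, 49.8 and 29.9 CPM in the controls and 39.5, 53.0 and 59.2 CPM in the knockdown libraries. The groups overlapped widely, and without sh-NC 3 the log2 fold change was −0.08. MSH6, which recognises single mispaired bases, had mean levels of 115.0 ± 20.6 CPM (SD, n = 3) in the controls and 121.0 ± 26.9 CPM (SD, n = 3) with the knockdown. Its log2 fold change was 0.07 (SE 0.211). With the trends removed it was 0.43 (SE 0.221, unadjusted p = 0.0763 by edgeR), and the groups overlapped. PMS1 and PMS2, which belong to the MutL family, had log2 fold changes of −0.22 and −0.14, and 0.08 for both with the trends removed. PMS2 has several near-identical pseudogene copies, and its counts are therefore uncertain. The 2 entries of such a name with most counts, PMS2P4 and PMS2P3, had 24 to 70 and 28 to 47 counts in a library. Both were annotated as long noncoding RNA, while PMS2P5, annotated as a pseudogene, had 21 to 42 counts.

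**Figure D2:**
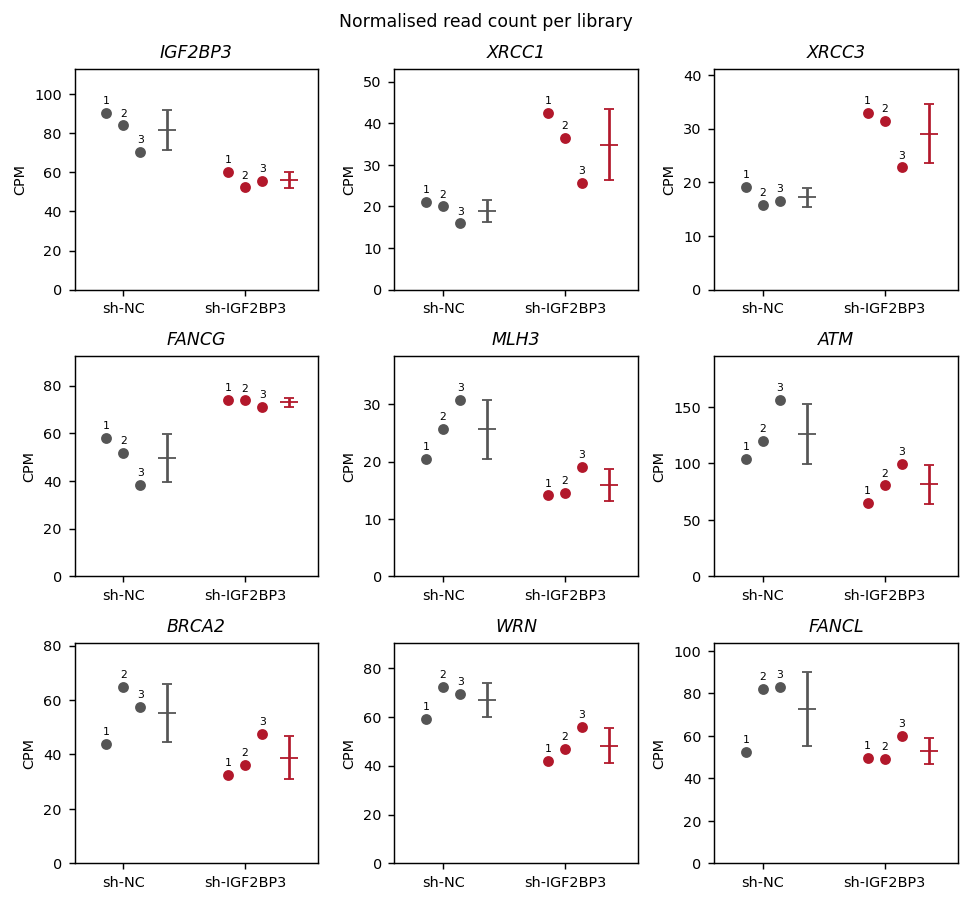
Normalised read count (CPM, linear axis from 0) of IGF2BP3 and of the 8 repair genes with an unadjusted p under 0.05, with 1 numbered point per library and the mean and SD of 3 libraries beside each group. XRCC1, XRCC3 and FANCG were higher and MLH3, ATM and WRN lower in sh-IGF2BP3 libraries without overlap, while BRCA2 and FANCL overlapped; with the GC and length trends removed the log2 fold change of FANCL turned from −0.45 to 0.08.

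The genes of end resection and of homologous recombination went both ways. RAD50, MRE11 and NBN form the complex that binds broken ends, and RBBP8 (also named CtIP) starts the resection with it. RAD50 had the highest log2 fold change of these 4 genes, 0.13 (SE 0.241), and MRE11 the lowest, −0.40 (SE 0.195, unadjusted p = 0.0598 and adjusted p = 0.246 by edgeR with BH adjustment). MRE11 had 40.4, 50.5 and 57.9 CPM in the controls and 34.5, 37.1 and 41.5 CPM in the knockdown libraries, where only sh-IGF2BP3 3 lay above the lowest control. RAD50 had 9.26, 12.7 and 9.91 CPM in the controls and 12.4, 11.4 and 11.2 CPM in the knockdown libraries, with sh-NC 2 the highest of all 6.

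With the trends removed, RAD50 had a log2 fold change of 0.48 (SE 0.202, unadjusted p = 0.0378, adjusted p = 0.469 by edgeR with BH adjustment) and no overlap between the groups, while MRE11 was at −0.04. NBN and RBBP8 were at −0.25 and −0.11, and at 0.18 and 0.13 with the trends removed. Almost the whole of RAD50, 99.7% of its span, lies inside another protein-coding annotation on the same strand (ENSG00000283782) that was listed at 0 counts in all libraries, and how reads that fit both were counted is not given in the sources used here.

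Of the 8 homologous recombination genes, 5 were lower and 3 higher, with a median log2 fold change of −0.13, and of 0.22 with the trends removed. XRCC3 (chr14:103697609-103715504), which forms a complex with RAD51C that helps the recombinase filament, had the highest value. It had 19.2, 15.8 and 16.5 CPM in the control libraries against 32.9, 31.5 and 22.8 CPM in the knockdown libraries, so that all 3 knockdown libraries lay above the controls. On the log2 scale XRCC3 differed by 0.76 (SE 0.218, unadjusted p = 0.00309, adjusted p = 0.108 by edgeR with BH adjustment). DESeq2 gave XRCC3 an adjusted p of 0.0303 with BH adjustment, within a range of 0.0188 to 0.992 over the other settings, and with the trends removed the edgeR log2 fold change was 0.31 (SE 0.159, unadjusted p = 0.0753). XRCC3 lies for 93.0% of its span within KLC1 on the opposite strand, which had 930 to 1317 counts in a library, and without strand the reads of the 2 genes cannot be told apart. The use of strand in the counting is not given in the sources used here.

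BRCA2, which loads the recombinase onto resected DNA, had the lowest value of the homologous recombination genes. It had 43.8, 64.8 and 57.4 CPM in the controls and 32.4, 36.2 and 47.7 CPM in the knockdown libraries, and sh-IGF2BP3 3 lay above sh-NC 1. The log2 fold change was −0.51 (SE 0.211, unadjusted p = 0.0274, adjusted p = 0.175 by edgeR with BH adjustment), and −0.06 with the trends removed. BRCA1 and BARD1, which form a ubiquitin ligase at breaks, both had a log2 fold change of −0.13, and both 0.22 with the trends removed. PALB2, the bridge between BRCA1 and BRCA2, was at −0.19 and then 0.05, and XRCC2 at −0.30 and then 0.00.

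RAD54L, a motor protein of the recombinase filament, was higher without overlap, with 36.9 ± 7.23 CPM (SD, n = 3) in the controls and 47.3 ± 0.778 CPM (SD, n = 3) with the knockdown. Its log2 fold change was 0.36 (SE 0.195, unadjusted p = 0.0845, adjusted p = 0.291 by edgeR with BH adjustment), and 0.22 with the trends removed. Without sh-NC 3 the RAD54L value was 0.19, and 0.07 with the trends removed. LRRC41 covers 54.0% of it on the opposite strand with 1315 to 1706 counts. RAD51C had a log2 fold change of 0.18, and 0.51 (SE 0.217, unadjusted p = 0.0371, adjusted p = 0.469 by edgeR with BH adjustment) with the trends removed. With the trends removed and sh-NC 1 left out, RAD51C was called higher at 0.76 (adjusted p = 0.0348, edgeR with BH adjustment, within a range of 0.0348 to 0.992 over all settings), beside 4.19% of 17379 genes called higher and 1.04% lower. In that setting IGF2BP3 had a log2 fold change of −0.03.

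Among the 10 Fanconi genes, 7 were lower and 3 higher, with a median log2 fold change of −0.06, and 9 were higher with a median of 0.08 once the trends were removed. FANCG, a subunit of the core complex, had the highest value. It had 58.2, 51.8 and 38.5 CPM in the controls and 73.9, 73.8 and 70.9 CPM in the knockdown libraries, which were close to each other and all above the controls. The log2 fold change was 0.56 (SE 0.193, unadjusted p = 0.0107, adjusted p = 0.133 by edgeR with BH adjustment), and 0.29 (SE 0.176, unadjusted p = 0.132) with the trends removed. FANCL, the ubiquitin ligase of the core complex, had the lowest value, with 52.4, 82.2 and 83.0 CPM in the controls and 49.8, 49.0 and 60.0 CPM in the knockdown libraries. Its log2 fold change of −0.45 (SE 0.208, unadjusted p = 0.0437, adjusted p = 0.215 by edgeR with BH adjustment) was 0.08 with the trends removed, and sh-NC 1 overlapped the knockdown libraries.

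The other Fanconi genes lay closer to 0. FANCD2 and FANCI, the pair that the core complex ubiquitinates, had log2 fold changes of −0.06 and −0.13, and 0.21 and 0.20 with the trends removed. FANCM, which anchors the core complex to DNA, and BRIP1, the helicase also named FANCJ, were at −0.34 and −0.35, and at 0.08 and 0.12 with the trends removed. The core subunits FANCA, FANCC, FANCE and FANCF had log2 fold changes from −0.07 for FANCF to 0.20 for FANCE. FANCF, an adaptor of the core complex, had few counts, at 5.01 ± 1.41 CPM (SD, n = 3) in the controls and 4.80 ± 0.409 CPM (SD, n = 3) with the knockdown.

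Of the 6 checkpoint genes, 3 were lower and 3 higher, with a median log2 fold change of −0.08, and of 0.02 with the trends removed. ATM (chr11:108223044-108369102), the kinase that answers double-strand breaks, had 104.0, 120.0 and 156.0 CPM in the control libraries against 64.9, 80.6 and 99.2 CPM in the knockdown libraries. The groups did not overlap, although sh-IGF2BP3 3 came close to sh-NC 1. The log2 fold change of ATM was −0.63 (SE 0.211, unadjusted p = 0.00858, adjusted p = 0.126 by edgeR with BH adjustment), and −0.11 (SE 0.146, unadjusted p = 0.457) with the trends removed. ATR, the kinase of stalled forks, had a log2 fold change of −0.42 (SE 0.205, unadjusted p = 0.0579 by edgeR), and 0.05 with the trends removed.

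ATRIP, which brings ATR to single-stranded DNA, had the highest fold change of the 6 checkpoint genes. It had 24.4, 24.5 and 18.6 CPM in the controls and 26.2, 26.2 and 29.4 CPM in the knockdown libraries, a narrow separation without overlap. Its fold change on the log2 scale was 0.28 (SE 0.205, adjusted p = 0.437 by edgeR with BH adjustment), and −0.01 with the trends removed. Without sh-NC 3 the ATRIP value was 0.14. CHEK1 and CHEK2, the effector kinases, were at 0.06 and 0.19, and at 0.31 and 0.19 with the trends removed. TOPBP1, the activator of ATR, was at −0.23 and then 0.00, with knockdown libraries between 97.0 and 202.0 CPM and control libraries between 139.0 and 207.0 CPM.

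Both RecQ helicases were lower. WRN, which unwinds secondary structures at expanded repeats, had 59.1, 72.3 and 69.6 CPM in the controls and 41.9, 46.8 and 55.9 CPM in the knockdown libraries, with no overlap. Its log2 fold change was −0.47 (SE 0.188, unadjusted p = 0.0227, adjusted p = 0.164 by edgeR with BH adjustment), and −0.13 (SE 0.135, unadjusted p = 0.370) with the trends removed. BLM, which dissolves recombination intermediates, had 48.0, 59.9 and 43.2 CPM in the controls and 30.6, 36.4 and 46.3 CPM in the knockdown libraries, where sh-IGF2BP3 3 lay above sh-NC 3. Its log2 fold change was −0.41 (SE 0.208, unadjusted p = 0.0638 by edgeR), and −0.12 with the trends removed.

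The genes of break sensing and joining held the highest fold change of the 40 genes. XRCC1 (chr19:43543311-43580473), the scaffold of single-strand break repair, had 21.0, 20 and 15.9 CPM in the control libraries against 42.4, 36.5 and 25.6 CPM in the knockdown libraries. All 3 knockdown libraries lay above the controls, and they differed more among themselves than the controls did. On average the controls stood at 18.9 ± 2.70 CPM (SD, n = 3), against 34.8 ± 8.56 CPM (SD, n = 3) with the knockdown. On the log2 scale the difference was 0.88 (SE 0.228, unadjusted p = 0.00142, adjusted p = 0.103 by edgeR with BH adjustment), and it lay between 0.71 and 1.04 when each library was left out in turn. XRCC1 was called by DESeq2 (adjusted p = 0.0214) and by edgeR without a filter on low counts (adjusted p = 0.0176, beside 1.89% of 36335 genes called higher and 0.413% lower), with BH adjustment in both, within a range of 0.0127 to 0.992 over the other settings.

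With the trends removed the log2 fold change of XRCC1 was 0.48 (SE 0.166, unadjusted p = 0.0137, adjusted p = 0.417 by edgeR with BH adjustment), and the groups again did not overlap. Another protein-coding annotation on the same strand (ENSG00000268361) covers 69.4% of the XRCC1 span and was listed at 0 counts in all libraries. How reads that fit both were counted is not given in the sources used here. PARP1, the sensor of strand breaks that recruits XRCC1, had 498.0 ± 110.0 CPM (SD, n = 3) in the controls and 612.0 ± 27.9 CPM (SD, n = 3) with the knockdown, a log2 fold change of 0.30, and of 0.45 with the trends removed. Without sh-NC 3 these values of PARP1 were 0.11 and 0.23. XRCC5 and XRCC6, which encode the Ku proteins that cap broken ends, overlapped between the groups. XRCC5 had 776.0, 763.0 and 588.0 CPM in the controls and 558.0, 701.0 and 819.0 CPM in the knockdown libraries, with a log2 fold change of −0.03 (SE 0.206). XRCC6 had a log2 fold change of 0.30 (SE 0.209), and 0.21 with the trends removed, which were 0.11 and 0.04 without sh-NC 3.

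**Figure D3:**
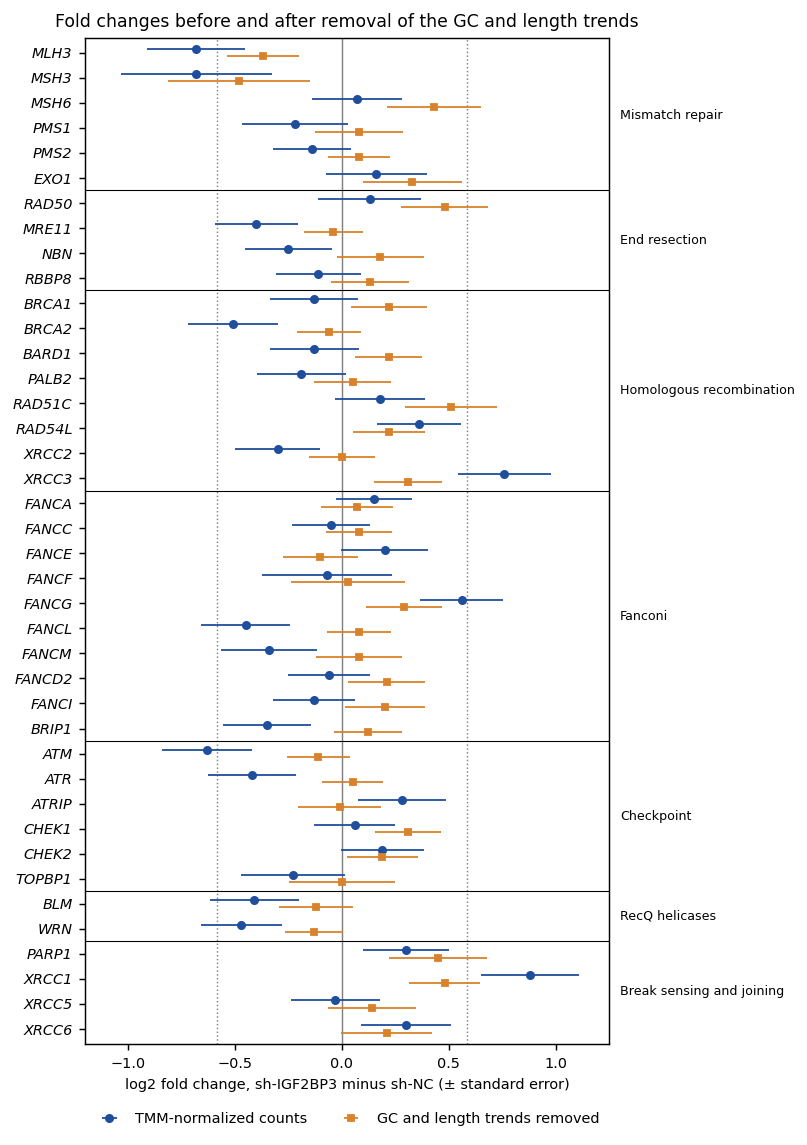
Log2 fold change (sh-IGF2BP3 minus sh-NC) with its standard error for the 40 genes by role, from normalised counts (circles) and with the GC and length trends removed (squares); dotted lines mark a 1.5-fold difference. MLH3 and MSH3 (both −0.68) and ATM (−0.63) lay furthest to the left and XRCC1 (0.88) furthest to the right, and with the trends removed 16 genes moved from the left of 0 to the right and 2 the other way.

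Levels of different genes were compared per length, in the deposited FPKM (fragments scaled to gene length and to the library's total). XRCC6 and XRCC5 stood at 265.0 ± 45.2 and 132.0 ± 13.3 FPKM (SD, n = 3) in the sh-NC libraries, while RAD50 at 1.03 ± 0.198 and MSH3 at 1.31 ± 0.0807 FPKM (SD, n = 3) were the lowest. PARP1 at 27.5 ± 4.47 FPKM and TOPBP1 at 24 ± 3.22 FPKM (SD, n = 3) followed the Ku genes. The gene lengths behind the FPKM ran from 2745 bases for XRCC1 to 39184 bases for ATM, so FPKM levels of genes with many annotated exons depend on that length. The low level of RAD50 also depends on how reads shared with the annotation that covers 99.7% of its span were counted.

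For 7 pairs of proteins that act as partners, the FPKM of the first was divided by that of the second within each library. These ratios were added after their values were seen, and their p-values do not account for that choice. The ratio of MSH6 to MSH3 was 5.09, 5.72 and 4.38 in the sh-NC libraries and 13.5, 7.52 and 7.58 in the knockdown libraries, and every knockdown library was above every control (exact permutation test, p = 0.1, BH-adjusted p = 0.233 over the 7 pairs). The value of 13.5 in sh-IGF2BP3 1 rested on 35 counts of MSH3. The ratio of RAD50 to MRE11 was 0.166, 0.183 and 0.124 in the sh-NC libraries and 0.261, 0.223 and 0.196 in the knockdown libraries, again without overlap (exact permutation test, p = 0.1, adjusted p = 0.233). Both separations were also present with the trends removed, with log2 differences of 1.01 and 0.51. The RAD50 counts in the ratio to MRE11 carry the limit of the overlapping annotation given above. The ratio of ATR to ATRIP was lower without overlap, with means of 0.863 ± 0.280 and 0.515 ± 0.0695 (SD, n = 3, exact permutation test p = 0.1, adjusted p = 0.233), but its log2 difference went from −0.70 to 0.06 with the trends removed. The ratios of PMS2 to PMS1, BRCA1 to BARD1, FANCI to FANCD2 and XRCC6 to XRCC5 overlapped between the groups, with exact permutation p between 0.2 and 0.9.

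The fold changes of the 40 genes followed the GC content of their longest transcript, with a Spearman correlation across genes of 0.775 (n = 40 genes, which share the same 6 libraries), beside 0.611 over 16236 tested genes with a known GC content. Fold changes also fell with gene length, with a Spearman correlation of −0.47 over the 40 genes and −0.261 over 16753 tested genes. Both trends were removed together. The 9 genes with a GC content of at least 50% had a median log2 fold change of 0.30, and 8 of them were higher. The 31 genes under 50% had a median of −0.19, and 24 of them were lower. XRCC1 (58.3% GC), XRCC3 (63.8%) and FANCG (58.1%) belonged to the first set, and MLH3 (41.6%), ATM (39.1%), BRCA2 (36.3%), WRN (38.9%) and FANCL (39.3%) to the second. With the trends removed the medians were 0.21 and 0.08. The correlation with GC content was then 0.277 over the 40 genes and 0.0238 over all, and that with length −0.0471 and −0.0276. Within single libraries, the deviation of all genes moved per 10 points of GC by −0.05, −0.23 and −0.21 log2 CPM in the controls and by 0.35, 0.15 and −0.01 log2 CPM in the knockdown libraries. The trend was thus steepest in sh-IGF2BP3 1 and near 0 in sh-NC 1 and sh-IGF2BP3 3, and a trend that differs between the groups cannot be told apart from a difference between the groups in GC-rich and GC-poor genes.

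**Figure D4:**
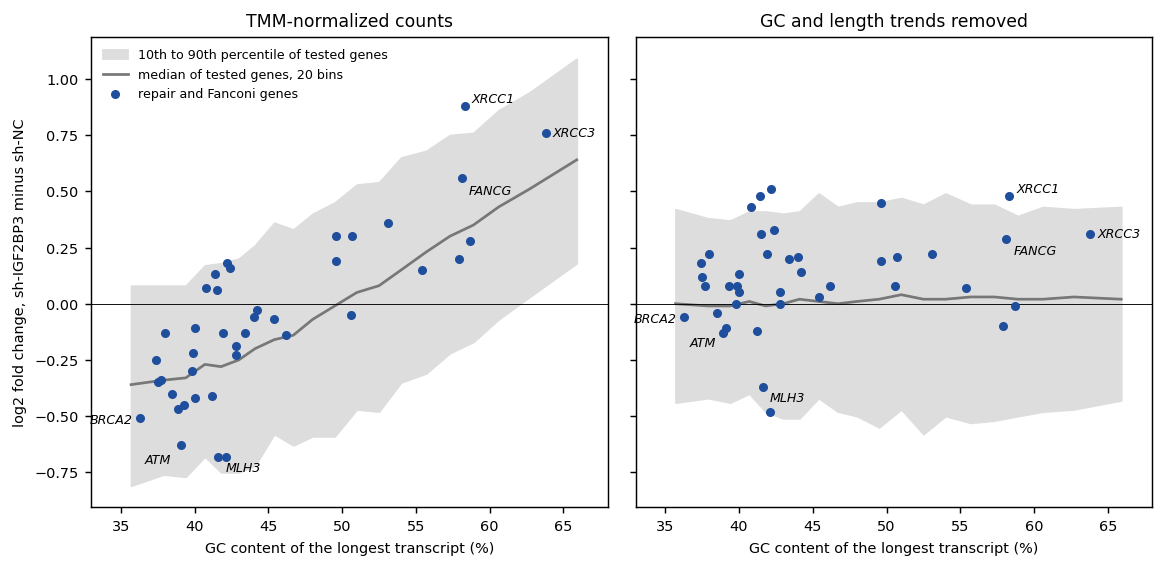
Log2 fold change (sh-IGF2BP3 minus sh-NC) against the GC content of the longest transcript (%) for the 40 genes (points), with the median (line) and the 10th to 90th percentile (band) of all tested genes in 20 bins of GC content, from normalised counts (left) and with the trends removed (right). On the left, genes with more GC lie higher (Spearman 0.775, n = 40), and on the right the correlation is 0.277.

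Markers of dividing cells also differed between the libraries. The 18 cell cycle markers summed to 5550, 5050 and 3530 CPM in the controls and to 5100, 5780 and 6050 CPM in the knockdown libraries, so that sh-NC 3 was the lowest library. Of these markers 15 were higher and 3 lower, with a median log2 fold change of 0.38, and of 0.29 with the trends removed. At an unadjusted p under 0.05 by edgeR 6 were higher (MCM2, MCM5, MCM6, MCM7, PLK1 and CDC20), beside 13.6% of all genes, and 0 were called. The 3 lower were MKI67 (−0.16), TOP2A (−0.24) and BUB1 (−0.08), and CDK1 and AURKA stood at 0.00 and 0.02. The median deviation of the markers in sh-NC 3 was −0.62 log2 CPM. In the same library it was −0.42 log2 CPM for the 9 repair genes with a GC content of at least 50%. It was −0.03 for the 31 under 50% and −0.14 over all 40 genes. With the trends removed it was −0.64 for the markers, and −0.27, −0.32 and −0.31 for these sets of repair genes. The part of the share of dividing cells in the repair results was not tested.

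**Figure D5:**
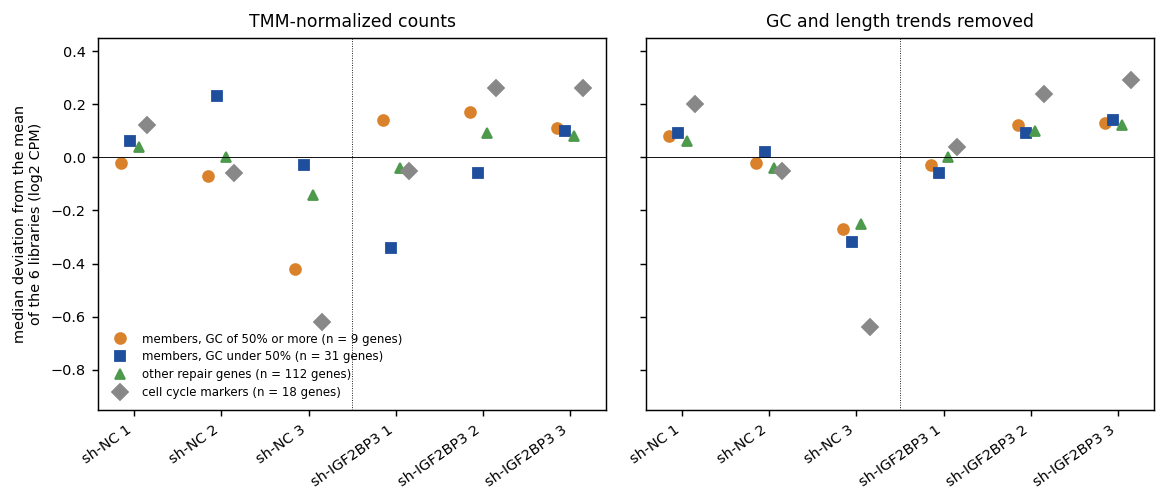
Median distance of each library from the average of all 6 (log2 CPM) for the repair genes with a GC content of at least 50% (circles, 9 genes), those under 50% (squares, 31 genes), 112 other repair genes (triangles) and 18 cell cycle markers (diamonds), from normalised counts (left) and with the trends removed (right). The squares were lowest in sh-IGF2BP3 1 (−0.34) and the circles in sh-NC 3 (−0.42), and with the trends removed both were lowest in sh-NC 3.

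A wider set of 113 other repair genes was read in the same fit, of which 112 were tested. At an unadjusted p under 0.05 there were 21 higher and 8 lower, beside 13.6% and 8.54% of all genes, and edgeR called 0. DESeq2 called 7 of the 113 higher and 0 lower, beside 4.29% and 1.05% of all genes. The median log2 fold change of the set was 0.07, and 0.11 with the trends removed. With the trends removed, 14 were higher and 1 lower at an unadjusted p under 0.05 by edgeR, beside 6.86% and 3.59% of all genes. In base excision repair, which mends single damaged bases with XRCC1 as a scaffold, 16 of 22 genes were higher, 6 of them at an unadjusted p under 0.05 and 0 lower at that p, with a median of 0.22 and of 0.21 with the trends removed. After that removal 3 of these genes were higher and 0 lower at that p. In end joining and translesion synthesis, 13 of 18 genes were lower, with 4 higher and 4 lower at an unadjusted p under 0.05 and a median of −0.12, which was 0.04 with the trends removed. Nucleotide excision repair, which removes bulky adducts, had a median of 0.07 over 22 genes, with 2 higher and 2 lower at that p, and the other damage signalling genes had 0.07 over 17 genes, with 4 higher and 2 lower. The remaining recombination and Fanconi genes had a median of 0.17 over 33 genes, with 5 higher and 0 lower.

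The promoters are shown for the genes with the highest fold changes, XRCC1 and XRCC3, and for MLH3 and ATM among the lowest. The windows run from 250 bases before to 50 bases after the RefSeq start (GRCh38.p14), and 36 of the 40 genes had one. On either strand the search used CCAAT for a CCAAT box, GGGCGG for a GC box, TTTCGCGC or else TTTGGCGC for an E2F site and TTTGAA for the CHR element of cell cycle genes. Capitals mark the matches, which do not overlap each other in these windows. XRCC1 is at chr19:43575478-43575777 and XRCC3 at chr14:103715402-103715701, both on the minus strand, MLH3 is at chr14:75051418-75051717 on the minus strand and ATM at chr11:108222817-108223116 on the plus strand.
XRCC1: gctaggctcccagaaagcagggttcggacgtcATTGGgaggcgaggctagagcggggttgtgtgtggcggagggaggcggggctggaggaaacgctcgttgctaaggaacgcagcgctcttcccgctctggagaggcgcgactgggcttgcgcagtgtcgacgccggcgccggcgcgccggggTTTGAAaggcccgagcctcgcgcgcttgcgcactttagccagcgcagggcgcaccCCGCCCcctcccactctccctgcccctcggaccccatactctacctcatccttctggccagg
XRCC3: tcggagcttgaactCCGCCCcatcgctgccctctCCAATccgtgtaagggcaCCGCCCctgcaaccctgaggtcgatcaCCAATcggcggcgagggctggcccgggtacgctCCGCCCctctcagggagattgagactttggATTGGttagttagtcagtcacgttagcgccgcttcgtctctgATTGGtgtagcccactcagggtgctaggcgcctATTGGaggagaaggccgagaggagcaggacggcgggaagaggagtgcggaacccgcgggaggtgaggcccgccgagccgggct
MLH3: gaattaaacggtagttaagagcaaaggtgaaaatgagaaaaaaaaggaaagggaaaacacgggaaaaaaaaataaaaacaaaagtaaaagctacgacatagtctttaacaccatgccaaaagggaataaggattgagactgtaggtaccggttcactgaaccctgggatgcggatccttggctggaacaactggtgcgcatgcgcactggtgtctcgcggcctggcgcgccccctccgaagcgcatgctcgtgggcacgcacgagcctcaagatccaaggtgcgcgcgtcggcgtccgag
ATM: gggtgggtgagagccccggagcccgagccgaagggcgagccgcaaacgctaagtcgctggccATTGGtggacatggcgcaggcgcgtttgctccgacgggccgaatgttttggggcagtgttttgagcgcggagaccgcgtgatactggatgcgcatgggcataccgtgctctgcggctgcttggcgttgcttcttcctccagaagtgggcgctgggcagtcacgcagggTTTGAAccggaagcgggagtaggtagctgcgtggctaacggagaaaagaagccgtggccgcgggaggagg

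XRCC1 and XRCC3 hold letters of the CCAAT box and of the GC box, XRCC1 and ATM those of the CHR element, ATM also those of the CCAAT box, and MLH3 none of them. Over the 36 promoters, the GC box was found in 29 (80.6%, beside 44.6% of 27305 promoters), the CCAAT box in 18 (50% beside 35.7%), the E2F site in 5 (13.9% beside 1.18%) and the CHR element in 4 (11.1% beside 15.4%). The median GC content of the promoters was 64.8%, beside 58.3% over all promoters, and ran from 48.0% to 78.0%. The low GC content of transcripts such as ATM and BRCA2 did not extend to their promoters, which had 64.3% and 63.3% GC. A match of letters is a description of the window and not a site shown to be bound.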

How the data were processed

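RNA-seq libraries of 3 sh-NC and 3 sh-IGF2BP3 HCT116 samples were analysed from 2 deposited tables of 62710 genes. The counts are whole numbers of reads per gene as deposited by the authors, without normalization. The FPKM values were computed by the authors from those counts, the library totals and 1 fixed length per gene. The submitters' processing notes name CASAVA and GRCh38, and the aligner, the counting tool and the use of strand are not given in the sources used here. The deposited tables held 0 columns outside these samples.

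Tests were run with edgeR 4.0.16 in R 4.3.3 (filterByExpr, TMM, quasi-likelihood test, BH adjustment over all genes tested, no covariate). The fold change of 1.5 and the adjusted p of 0.05 follow the study's methods. DESeq2 1.42.0 and limma 3.58.1 served as alternatives, as did other normalizations and filters, log2(FPKM + 1) and log2(FPKM + 0.1), a block for the replicate number and each library left out in turn. CPM used TMM-scaled totals, and log2 CPM a prior count of 2. The trends with GC content (longest GENCODE 29 transcript) and gene length were splines with 5 degrees of freedom per library, used as offsets. Removing the trends with a library left out or within DESeq2 was chosen after seeing the data. The scripts were tested on simulated data.

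The repair genes, the other lists and the removal of GC trends were chosen with earlier results of these data known. Library values and statistics were given for IGF2BP3, for each gene at an unadjusted p under 0.05 and for the highest and lowest of each role. MSH3, RAD54L, RAD51C, PARP1 and the partner ratios were added after their values were seen. Totals ran from 16146718 to 23576469 counts, and the closest libraries of a group had a chi-square per degree of freedom of 16.6, so none was counted as a duplicate. Matches to the shRNAs were searched in GENCODE 29 transcripts, and promoters came from RefSeq.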

Additional observations from a re-analysis of the deposited data

How the results depend on the processing

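With 3 libraries in each group the exact test of a single value cannot go below p = 0.1, and the tests across genes rest on the same 6 libraries. Low counts limit MSH3, FANCF and RAD50, and overlapping annotations limit XRCC1, XRCC3, RAD54L and RAD50. RLE and upper-quartile normalization, the filter of 10 counts in every library, any fold change and the log2 FPKM settings gave 0 genes called in both directions. DESeq2 called 2 genes higher and edgeR without a filter on low counts called 1, beside 4.29% and 1.89% of all genes, and neither called a gene lower. Upper-quartile normalization gave 8 genes lower at an unadjusted p under 0.05 by edgeR. The median log2 fold change of all genes was then −0.074, beside −0.014 in the main fit. The share of all genes at that p was not taken in this setting, so the count is not read as a result about the repair genes.

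The deviations of libraries with the same replicate number correlated at −0.284, −0.186 and −0.0433, and those of libraries with different numbers at −0.258 to 0.323. The study's text speaks of pairs of control and knockdown cells. With so few libraries these correlations cannot show whether the samples were paired. With the replicate number as a block 0 genes were called, and the block changed no call. With the GC and length trends removed 1 gene was lower at an unadjusted p under 0.05 and the median log2 fold change was 0.10. With DESeq2 on the same trends 0 genes were lower at that p and the median was 0.10, and with the trends and the replicate block together 0 genes were lower and the median was 0.13.

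The sign turned for 18 genes once the trends were removed, with log2 fold changes of 0.08 for PMS1, 0.08 for PMS2, 0.18 for NBN, 0.13 for RBBP8, 0.22 for BRCA1, 0.22 for BARD1, 0.05 for PALB2, 0.08 for FANCC, −0.10 for FANCE, 0.03 for FANCF, 0.08 for FANCL, 0.08 for FANCM, 0.21 for FANCD2, 0.20 for FANCI, 0.12 for BRIP1, 0.05 for ATR, −0.01 for ATRIP and 0.14 for XRCC5. DESeq2 with the trends turned the same genes, at the same values to 2 decimals except 0.17 for NBN and 0.19 for FANCI. The trends with the block turned 19, with 0.12 for PMS1, 0.08 for PMS2, 0.21 for NBN, 0.15 for RBBP8, 0.25 for BRCA1, 0.22 for BARD1, 0.06 for PALB2, 0.00 for XRCC2, 0.09 for FANCC, −0.09 for FANCE, 0.05 for FANCF, 0.08 for FANCL, 0.10 for FANCM, 0.23 for FANCD2, 0.21 for FANCI, 0.14 for BRIP1, 0.05 for ATR, −0.02 for ATRIP and 0.15 for XRCC5. On the 3 log2 FPKM scales MSH6 was at −0.02 and CHEK1 at −0.01.

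When a library was left out, with or without the trends, the number called higher ran from 0 to 3 and lower from 0 to 4, the number at an unadjusted p under 0.05 from 1 to 9 higher and from 0 to 9 lower, and the median from −0.23 to 0.22. The highest counts came without sh-NC 1, and 9 lower also without sh-IGF2BP3 3. The share of all genes at that unadjusted p was not taken in these settings, so the counts are not read as a result about the repair genes. The log2 fold changes that turned in at least 1 of these settings ran from −0.09 to 0.68 for MSH6, −0.48 to 0.22 for PMS1, −0.23 to 0.16 for PMS2, −0.08 to 0.59 for EXO1, −0.52 to 0.03 for MRE11, −0.41 to 0.42 for NBN, −0.27 to 0.31 for RBBP8, −0.26 to 0.41 for BRCA1, −0.70 to 0.03 for BRCA2, −0.28 to 0.30 for BARD1, −0.37 to 0.18 for PALB2, −0.45 to 0.06 for XRCC2, −0.05 to 0.24 for FANCA, −0.13 to 0.19 for FANCC, −0.24 to 0.35 for FANCE, −0.27 to 0.20 for FANCF, −0.64 to 0.16 for FANCL, −0.52 to 0.30 for FANCM, −0.20 to 0.34 for FANCD2, −0.27 to 0.36 for FANCI, −0.47 to 0.28 for BRIP1, −0.57 to 0.12 for ATR, −0.17 to 0.34 for ATRIP, −0.05 to 0.40 for CHEK1, −0.54 to 0.25 for TOPBP1 and −0.19 to 0.29 for XRCC5. The cause of these differences was not tested.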
